A study of Mus musculus with 6 samples.

Results

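The 9 chemokine receptor genes Ccr2, Ccr4, Ccr7, Ccr8, Ccr9, Ccr10, Cxcr4, Cxcr6 and Cx3cr1 were followed through the accessible chromatin of lung group 2 innate lymphoid cells (ILC2s) from mice. A region of the deposited count table was taken as a member when it overlapped 1 of these protein-coding genes, or, where it overlapped no gene, when the nearest gene end within 100 kb belonged to one of them. All 9 genes had a region, and they held 47 of the 57203 regions, of which 54123 could be given a gene. The study measured chromatin accessibility by ATAC-seq, in which the Tn5 transposase cuts open DNA, in 2 libraries for each of 3 groups of ILC2s, all sorted from lungs of wild-type mice as Lin-CD25+ST2+ cells. Naive ILC2s came from mice given PBS for 3 days, and effector ILC2s from mice given papain, a protease allergen, at 30 µg per day for 3 days. Memory ILC2s were taken 2 months after an identical papain course. Each library pooled about 50000 cells from 2 to 4 mice, and females were used unless the labels say otherwise. The naive mice had no matching rest, so earlier papain and elapsed time cannot be told apart between memory and naive cells.

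Chemokine receptors are membrane receptors that couple mainly to inhibitory G proteins and steer cells along gradients of chemokines. ILC2s are tissue lymphocytes that make type 2 cytokines when epithelial alarmins reach them, and receptors of this family are known to guide their exit from the bone marrow and their position in the lung. Accessibility at a gene start or at a distal element is a property of the DNA and is not a measure of transcript or receptor protein. In pooled cells, a larger share of cells with an open region and a more open region in every cell cannot be told apart.

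Among the 9 genes, the effector cells differed from naive cells at 9 regions, of Ccr4, Cx3cr1, Cxcr4, Ccr9, Ccr7 and Ccr2, and 1 of the 6 regions over a known gene start was among them. A region was called when its Benjamini-Hochberg adjusted p, from edgeR's quasi-likelihood test on all 6 libraries, was under 0.05 over the 56007 regions tested. Of 44 member regions tested, 8 were higher and 1 was lower in effector than in naive cells. This was 18.2% and 2.27% of the members, against 11.5% and 4.98% of all tested regions. None was called higher or lower in memory than in naive cells, where 0.248% and 0.0714% of all regions were called. From effector to memory 3 were higher and 10 lower, or 6.82% and 22.7%, against 7.72% and 13.6% of all regions. The median log2 fold change of the members was 0.11 in effector against naive, where that of all tested regions was 0.003. It was 0.064 against -0.008 for memory against naive, and 0.013 against -0.038 for memory against effector. The count of 8 fell when any 1 of the naive or effector libraries was left out. The count of 10 fell when any 1 of the effector or memory libraries was left out. The counts over all regions fell in these fits too.

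Both effector comparisons use the same 2 effector libraries, so a region high in those libraries is high in both. Of the 14 member regions called at all, 8 were called in both comparisons, and 30 tested member regions were called in none. These counts were not set against the same counts over all tested regions and describe the members only. At an unadjusted p under 0.05 there were 15 member regions in effector against naive, 5 in memory against naive and 17 in memory against effector. Of the 56007 regions tested, 16726, 5544 and 19370 were under it in these comparisons. DESeq2 also called none of the members in memory against naive. The members that rose were mostly of low level. Of 17 members with a mean under 10 CPM, the read count scaled to library size, over all libraries, 6 were higher in effector than in naive cells, against 14.9% of all regions at that level. Of 27 members of 10 CPM and over, 2 were higher and 1 lower, against 6.43% and 10.7% of all regions at that level. The plot of fold changes by gene shows the 9 regions called in effector against naive spread over 6 of the 9 genes.

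**Figure D1:**
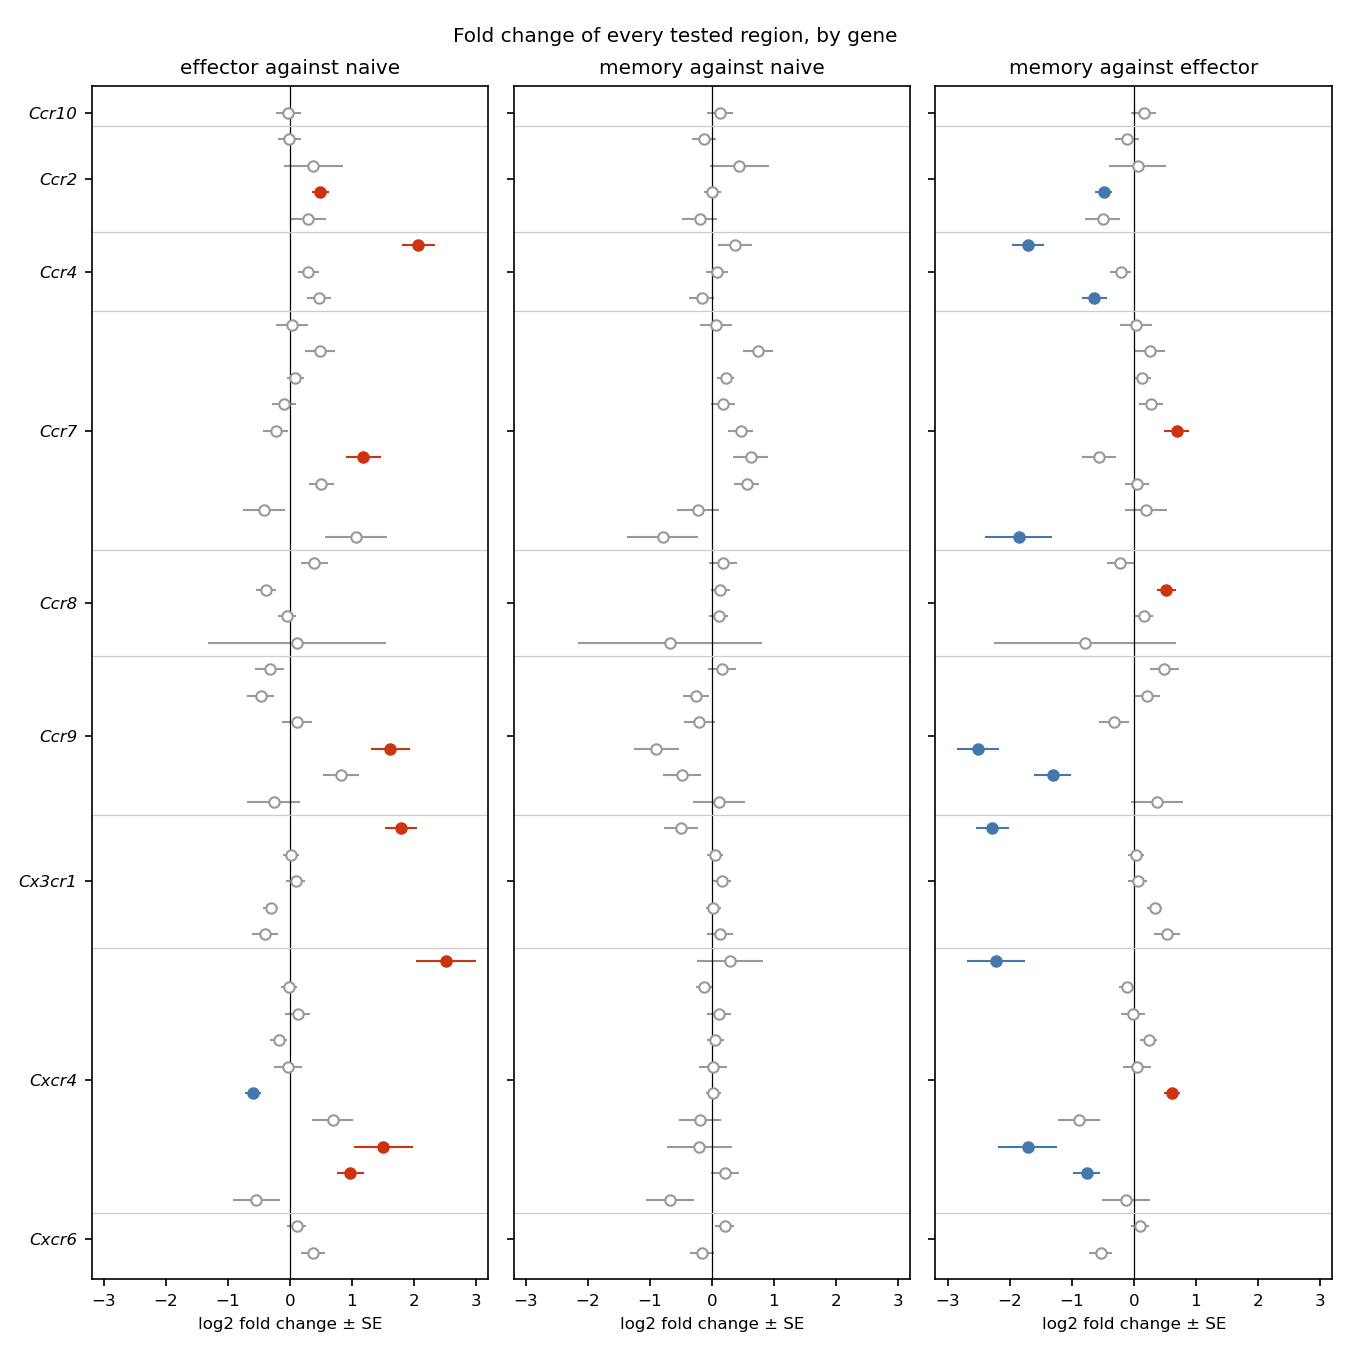
Log2 fold change with its standard error for each of the 44 tested regions, grouped by gene, in the 3 comparisons. Filled red points were called higher and filled blue points lower, open grey points were not called. In effector against naive 8 points are red and 1 is blue, in memory against naive none is filled, and in memory against effector 3 are red and 10 are blue.

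The start windows of 4 of the genes are printed below. Each is the 250 bases before the annotated start on the gene's own strand, from RefSeq on GRCm38.p6, the assembly also known as mm10, written 5′ to 3′. Capitals mark a match to 1 of 5 motifs searched on both strands. The motif searched for AP-1 factors was TGANTCA. For GATA factors it was AGATAA, and for RUNX factors the search used TGTGGT. The ETS family was searched with CCGGAAG, and the KLF family with GGGCGTG, with no overlap between motifs in these windows. The Ccr8 window lies at chr9:120091883-120092132 on the plus strand, the Ccr9 window at chr9:123766961-123767210 on the plus strand, the Cx3cr1 window at chr9:120068297-120068546 on the minus strand and the Cxcr4 window at chr1:128592300-128592549 on the minus strand.
Ccr8: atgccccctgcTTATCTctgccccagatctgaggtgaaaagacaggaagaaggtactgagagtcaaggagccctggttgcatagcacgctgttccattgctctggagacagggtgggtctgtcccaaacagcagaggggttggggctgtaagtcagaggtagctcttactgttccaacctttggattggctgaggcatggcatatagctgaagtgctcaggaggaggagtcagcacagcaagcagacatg
Ccr9: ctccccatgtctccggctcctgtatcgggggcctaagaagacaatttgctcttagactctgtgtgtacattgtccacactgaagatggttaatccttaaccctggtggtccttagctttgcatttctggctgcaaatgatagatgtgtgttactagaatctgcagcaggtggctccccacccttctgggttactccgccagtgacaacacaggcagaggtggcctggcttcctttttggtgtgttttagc
Cx3cr1: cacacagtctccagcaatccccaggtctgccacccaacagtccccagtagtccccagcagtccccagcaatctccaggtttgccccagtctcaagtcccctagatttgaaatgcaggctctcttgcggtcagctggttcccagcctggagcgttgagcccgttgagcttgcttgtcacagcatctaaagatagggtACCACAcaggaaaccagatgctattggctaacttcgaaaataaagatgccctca
Cxcr4: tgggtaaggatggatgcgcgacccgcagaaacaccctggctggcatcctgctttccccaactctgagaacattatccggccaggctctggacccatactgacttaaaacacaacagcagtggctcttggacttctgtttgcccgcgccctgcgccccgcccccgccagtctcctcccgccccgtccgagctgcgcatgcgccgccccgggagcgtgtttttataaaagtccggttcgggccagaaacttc
The Ccr8 window holds a GATA match and the Cx3cr1 window a RUNX match, while the Ccr9 and Cxcr4 windows hold none of the 5. The letters of the AP-1 motif occur in 6.75% of 32851 such windows in the RefSeq table, GATA in 9.99%, RUNX in 14%, ETS in 6.91% and KLF in 7.55%. A match describes letters and is not evidence of binding. The windows of Ccr8, Cx3cr1 and Cxcr4 each overlap an accessible region, and that of Ccr9 overlaps none. RefSeq windows were matched for 7 of the 9 genes. Those of Ccr2, Ccr4 and Cxcr6 are not printed and hold a GATA, an AP-1 and a RUNX match in turn.

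Levels summed over the regions of a gene were compared per kb of region, so that genes with more or wider regions are not ranked higher for that alone. Ccr8 was the most accessible, at 36.4 to 50.4 CPM per kb over the 6 libraries. Cx3cr1 followed at 31.8 to 35.1 and Cxcr4 at 20.2 to 22.9 CPM per kb. These 3 genes stood apart from each other and from the rest in every library. Ccr10 lay at 12.8 to 17.8 CPM per kb, Ccr9 at 11.5 to 16.3 and Cxcr6 at 12.2 to 15.2. The ranges of Ccr10 and Ccr9 overlapped, as did those of Ccr9 and Cxcr6. At the low end, Ccr7 had 7.19 to 9.79, Ccr2 6.30 to 9.89 and Ccr4 4.49 to 8.98 CPM per kb, and each of these overlapped its neighbour in the order.

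When the counts of all regions of a gene were added and 15986 such gene sums were tested, Ccr2 and Ccr4 were called higher in effector than in naive cells, 2 of the 9 genes. Over all genes 9.41% were called in either direction. The same 2 genes, and no other member, were called in memory against effector, both lower, where 13.1% of all genes were called. No member was called in memory against naive, where 0.2% of all genes were. The other 7 genes had sums that changed by at most 0.31 on the log2 scale in any comparison. Ccr7 had adjusted p values of 0.126 in effector against naive and 0.334 in memory against naive, and Cxcr6 of 0.1 in effector against naive.

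**Figure D2:**
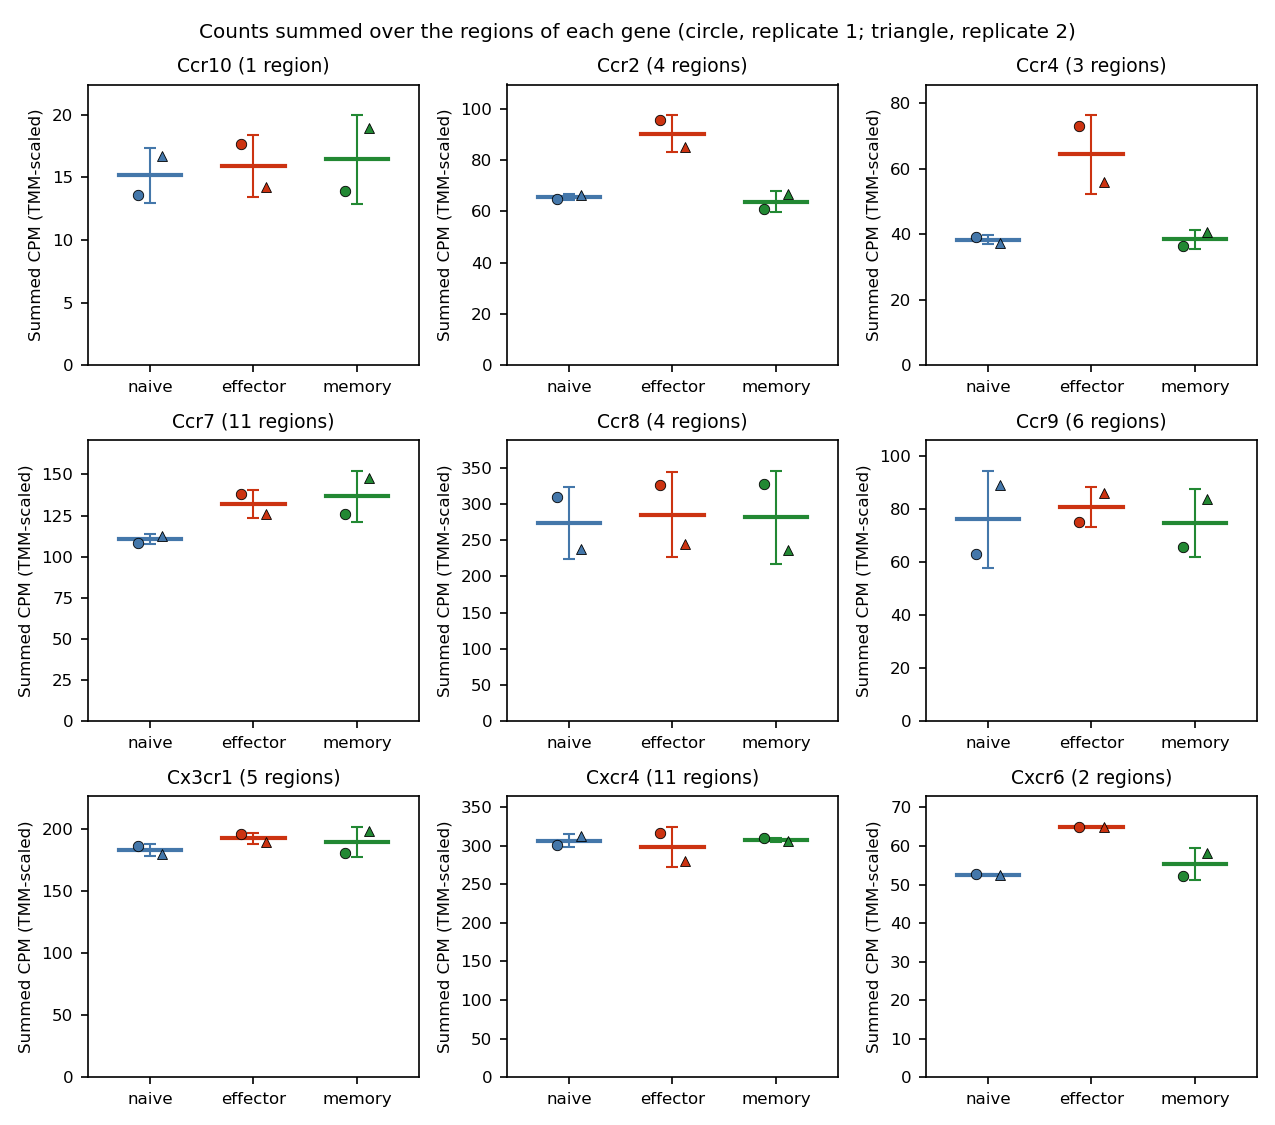
Summed CPM of each gene in the 6 libraries, in a panel per gene with its own axis from 0, scaled by the TMM factors of the gene sums. Circles are replicate 1, triangles replicate 2, bars the mean and whiskers the SD of 2 libraries. The effector libraries stand above the naive and memory libraries for Ccr2, Ccr4 and Cxcr6, and replicate 1 stands above replicate 2 in each group for Ccr8.

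Ccr4, the receptor for Ccl17 and Ccl22 that marks type 2 and regulatory T cells and guides them to skin and lung, had the largest change of any gene sum among the 9. Its 3 regions together gave 39.3 and 37.3 CPM in naive, 73.0 and 55.9 in effector and 36.5 and 40.6 in memory libraries. Both effector libraries were above all others, and the naive and memory libraries overlapped. The sum was 0.75 ± 0.14 higher on the log2 scale (SE) in effector than in naive cells, with an adjusted p of 0.00671 by edgeR, and -0.74 ± 0.14 in memory against effector, with an adjusted p of 0.00539. Both calls were lost without effector replicate 1, where the log2 differences were 0.535 in effector against naive and -0.522 in memory against effector.

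The rise at Ccr4 was concentrated in a region 1.2 kb beyond the end of the gene, at chr9:114486306-114489106, on the 3′ side. It had 3.44 and 4.40 CPM in naive, 19.1 and 14.3 in effector and 4.76 and 5.41 in memory libraries. Effector cells were far above the others, and the naive and memory libraries lay close together without overlapping. This was the smallest adjusted p of the 9 genes in effector against naive, with a log2 fold change of 2.07 ± 0.26 (SE) and an adjusted p of 6.6e-05. In memory against effector it fell by 1.70 ± 0.26, with an adjusted p of 0.000247, and in memory against naive it was 0.37 ± 0.27, with an adjusted p of 0.729. Both calls held in every alternative fitted. The region over the annotated start, at chr9:114494828-114498782, had 22.3 and 20.4 CPM in naive, 28.8 and 23.7 in effector and 21.2 and 23.8 in memory libraries. Here the memory range overlapped both other groups, and no comparison was called. The remaining region, 1.2 kb from the gene on its 5′ side at chr9:114506646-114508019, had 26.4 and 19.0 CPM in effector and 14.5 and 14.7 in memory libraries. It was lower in memory by 0.63 ± 0.20, with an adjusted p of 0.0303 that rose to 0.333 without effector replicate 1, 0.101 without memory replicate 1, 0.0926 without memory replicate 2 and 0.0565 in DESeq2.

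Ccr2, the receptor for Ccl2 and related chemokines that draws monocytes out of the bone marrow and into inflamed tissue, was the other gene called on its sum. Its 4 regions gave 64.9 and 66.4 CPM in naive, 95.5 and 85.1 in effector and 60.9 and 66.7 in memory libraries. Effector values exceeded all others, and naive and memory overlapped. The log2 difference was 0.46 ± 0.11 (SE) in effector against naive, with an adjusted p of 0.02, and -0.50 ± 0.11 in memory against effector, with an adjusted p of 0.0103. The first rose to 0.136 without naive replicate 1, 0.0923 without naive replicate 2 and 0.237 without effector replicate 1, and the second to 0.15 without effector replicate 1.

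Most of the Ccr2 signal lay in the widest member region, 4944 bp over its start at chr9:124099082-124104026. It had 46.8 and 45.4 CPM in naive, 70.9 and 58.9 in effector and 44.3 and 48.3 in memory libraries. Both effector libraries exceeded the rest. The log2 fold change was 0.49 ± 0.14 in effector against naive, with an adjusted p of 0.0194, and -0.48 ± 0.14 in memory against effector, with an adjusted p of 0.0179. Of the 6 regions over a known start of a member gene, this was the only one called in these 2 comparisons, and none was called in memory against naive. The call against naive was lost without naive replicate 1, naive replicate 2 or effector replicate 1, with adjusted p of 0.0883, 0.103 and 0.232. That against effector was lost without effector replicate 1 or memory replicate 1, with 0.203 and 0.101. The other 3 Ccr2 regions, 2 of them at 21.1 and 32.6 kb before the gene, were not called.

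Cx3cr1, the receptor for fractalkine found on monocytes, macrophages and some cytotoxic lymphocytes, changed at 1 of its 5 regions. This region of 555 bp lies within the gene, near its 3′ end and 18.3 kb from the start, at chr9:120049408-120049963. It had 3.84 and 4.34 CPM in naive, 14.9 and 13.6 in effector and 2.73 and 3.05 in memory libraries. The effector libraries were the highest and the memory libraries the lowest, with no overlap between the groups. It was 1.79 ± 0.26 higher on the log2 scale in effector than in naive cells, with an adjusted p of 0.000203. It was lower in memory than in effector cells, at -2.29 ± 0.27 and an adjusted p of 3.4e-05, the smallest of the 9 genes in that comparison. Memory against naive was -0.50 ± 0.28, with an adjusted p of 0.607. Both calls held in every alternative fitted. The region over the start, which holds the window printed above, had 50.02 and 35.5 CPM in naive, 46.4 and 44.7 in effector and 47.2 and 47.8 in memory libraries. The naive libraries spanned all the others and none of its comparisons was called. The gene's most accessible region by mean CPM, inside it at chr9:120054480-120055979, had 68.2 and 66.8 CPM in naive, 69.3 and 67.3 in effector and 64.5 and 75.4 in memory libraries, with full overlap and no call. A region named after its values were seen, 5.7 kb before the start at chr9:120073974-120075465, had 70.8 and 73.3 CPM in naive, 58.1 and 58.1 in effector and 71.5 and 75.0 in memory libraries. Its effector libraries were the lowest. The adjusted p was 0.0937 against naive and 0.0597 for memory against effector, so it was not called, although among the unblocked alternatives RLE scaling and DESeq2 gave 0.0421 and 0.0469 for the latter.

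Ccr2 and Cx3cr1 are also monocyte and macrophage genes, so the markers of those cells are set beside them. Of 9 myeloid markers, 4 had a region in the table, and none was assigned to Csf1r, Lyz2, Adgre1, Ly6g or S100a8. The summed level of the list was 35.6 to 36.3 CPM in naive, 43.6 to 55.5 in effector and 31.7 to 31.9 in memory libraries. Of its 10 regions, 3 were higher in effector than in naive cells, where 11.5% of all regions were, and 4 lower in memory than in effector cells, where 13.6% were. The T cell list had a region at 5 of 8 genes and the B cell list at 3 of 6, with none at Ms4a1 or Cd79a. All 8 ILC2 markers had a region, among them Il1rl1 and Il2ra, which encode the ST2 and CD25 used to sort the cells. The summed T cell list was 143 to 159 CPM in naive, 121 to 141 in effector and 153 to 172 in memory libraries, and the B cell list was 32.7 to 35.7, 45.2 to 46.0 and 25.4 to 26.8. The lung epithelial, endothelial and stromal list was 268 to 276 CPM in naive, 291 to 298 in effector and 284 to 289 in memory libraries. The mast cell and basophil list was 560 to 576, 451 to 470 and 522 to 534, and the NK cell and ILC1 list 239 to 285, 227 to 244 and 259 to 279. The myeloid, B cell and lung lists were thus highest in the effector libraries, as the Ccr2 sum and the Cx3cr1 region were. The T cell list and the mast cell and basophil list were lowest there. The NK cell and ILC1 list overlapped between effector and naive libraries. The ILC2 list was 3549 to 3822 CPM in naive, 3614 to 4274 in effector and 3672 to 4035 in memory libraries, with overlap between all groups. The part of these lists in the Ccr2 and Cx3cr1 results was not tested.

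**Figure D3:**
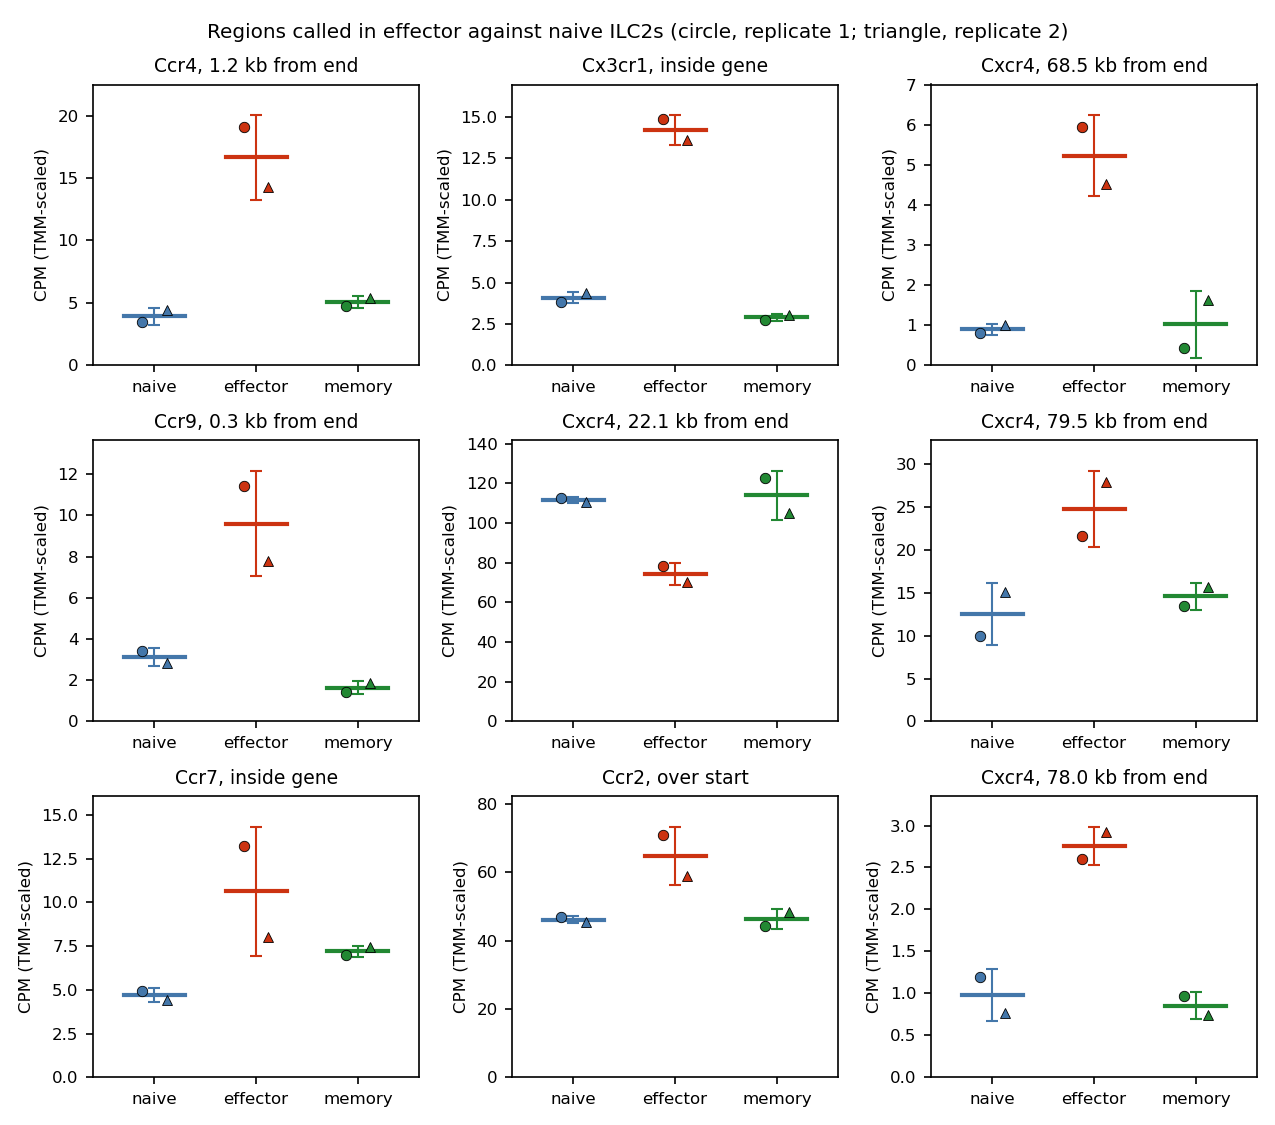
CPM in the 6 libraries of the 9 member regions called in effector against naive cells, ordered by adjusted p from the top left, each panel with its own axis from 0. Titles say whether a region lies over the start or inside the gene. For other regions they give the distance in kb from the nearest end of the gene, on either side. Circles are replicate 1, triangles replicate 2, bars the mean and whiskers the SD of 2 libraries. In 8 panels both effector libraries stand above both naive libraries, and in the panel of the Cxcr4 region 22.1 kb from the gene both stand below.

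Cxcr4, the receptor for Cxcl12 that holds blood progenitors and lymphocytes in the bone marrow, had the most called regions, and they went both ways. Its sum was 300.3 and 312 CPM in naive, 317 and 279 in effector and 310 and 306 in memory libraries, so the groups overlapped, and the log2 difference between effector and naive was -0.04 ± 0.09. Of its 11 regions 10 were tested, 3 were higher and 1 lower in effector than in naive cells. The region over the start, at chr1:128590766-128593402, had 115 and 103 CPM in naive, 109 and 83.5 in effector and 121 and 106 in memory libraries, with overlap between all groups and no call.

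The Cxcr4 region 22.1 kb before the start, at chr1:128614414-128615867, was the only member called lower in effector than in naive cells. It had 113 and 111 CPM in naive, 78.1 and 70.3 in effector and 123 and 105 in memory libraries. Both effector libraries were below all others, and memory and naive overlapped. The log2 fold change was -0.59 ± 0.13 (SE) in effector against naive, with an adjusted p of 0.00418, and 0.62 ± 0.13 in memory against effector, with an adjusted p of 0.00271. Both held in every alternative fitted. In contrast, a weaker region 68.5 kb past the 3′ end, at chr1:128518646-128519678, had 0.80 and 0.998 CPM in naive, 5.97 and 4.52 in effector and 0.44 and 1.62 in memory libraries. Effector values were the highest, and naive and memory overlapped. It held 27 counts in the naive and 171 in the effector libraries and was 2.52 ± 0.49 higher on the log2 scale, with an adjusted p of 0.00193. In memory against effector it was -2.22 ± 0.47, with an adjusted p of 0.00313, and the fold there ran from -3.54 to -1.68 over the alternatives.

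Farther upstream of Cxcr4, a pair of neighbouring regions rose together in effector cells. The one at chr1:128671805-128672752, 79.5 kb before the start, had 10 and 15.1 CPM in naive, 21.7 and 27.9 in effector and 13.5 and 15.7 in memory libraries. It was 0.98 ± 0.22 higher in effector than in naive cells, with an adjusted p of 0.00508, and -0.76 ± 0.21 in memory against effector, with an adjusted p of 0.0182. The effector libraries were above all others in both. The first call was lost without naive replicate 1 or effector replicate 2, with adjusted p of 0.0835 and 0.0618, and the second without effector replicate 2 or memory replicate 1, with 0.16 and 0.104. The other, at chr1:128670319-128670894, had 1.20 and 0.76 CPM in naive, 2.596 and 2.92 in effector and 0.97 and 0.74 in memory libraries. It was 1.51 ± 0.47 higher in effector than in naive cells, with an adjusted p of 0.0371, and -1.71 ± 0.48 in memory against effector, with an adjusted p of 0.0175. The first was lost without any 1 of the naive or effector libraries, with adjusted p from 0.0672 to 0.208, and was 0.113 in DESeq2 and 0.166 with a loess offset. The second was lost without effector replicate 1 at 0.0853, effector replicate 2 at 0.0996 or memory replicate 2 at 0.111, and was 0.0551 in DESeq2 and 0.143 with a loess offset. At such distances the nearest gene need not be the gene a region acts on.

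**Figure D4:**
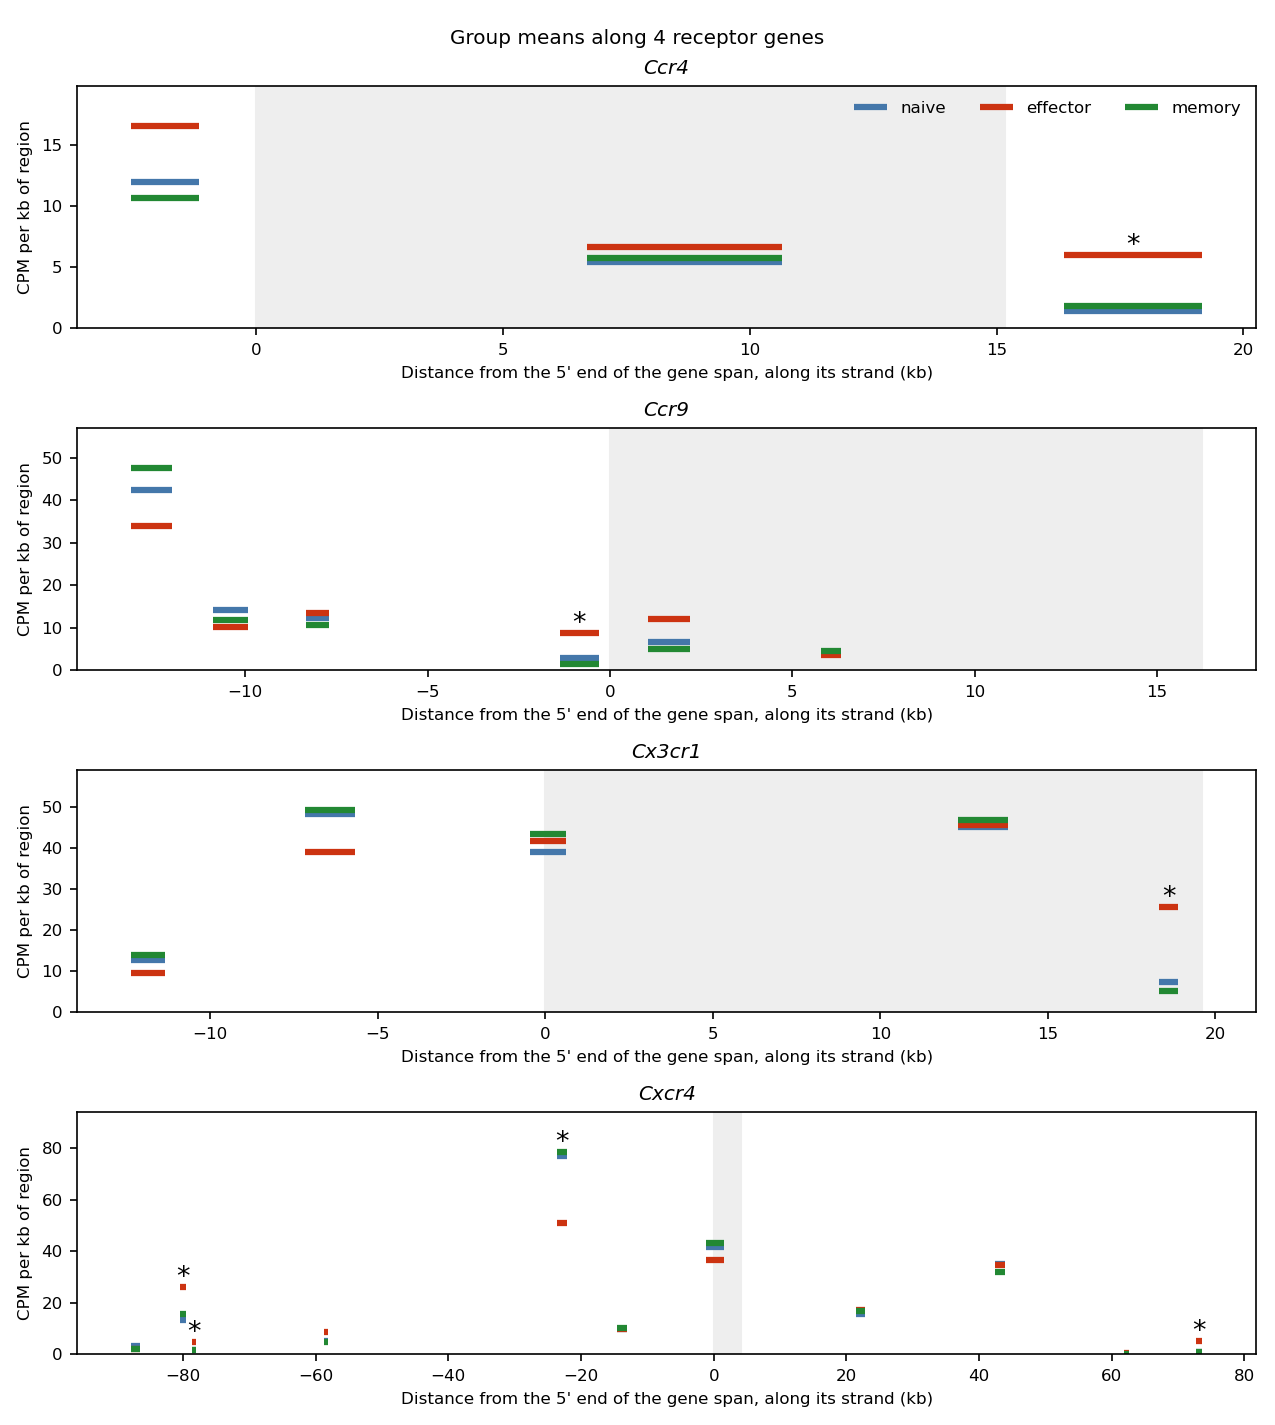
Group means of each region along Ccr4, Ccr9, Cx3cr1 and Cxcr4, in CPM per kb of region, against distance from the 5′ end of the gene span in kb along its strand. Bars are regions drawn to width, blue for naive, red for effector and green for memory, grey marks the gene span and an asterisk a region called in effector against naive cells. The called regions lie away from the tallest ones at Ccr4, Ccr9 and Cx3cr1, and at Cxcr4 the 22.1 kb region is the only called one in which red lies below blue.

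Ccr9, the receptor for Ccl25 that directs lymphocytes to the small intestine and the thymus, changed just outside and just inside its start. The region 0.3 kb before the start, at chr9:123765830-123766918, had 3.44 and 2.82 CPM in naive, 11.4 and 7.79 in effector and 1.41 and 1.87 in memory libraries. The groups did not overlap, with effector highest and memory lowest. It was 1.62 ± 0.32 higher on the log2 scale in effector than in naive cells, with an adjusted p of 0.00219 that rose to 0.0678 without effector replicate 1. It was lower in memory than in effector cells at -2.51 ± 0.34, with an adjusted p of 0.000104, the largest fall of any member, and this call held in every alternative fitted. Memory against naive was -0.89 ± 0.36, with an adjusted p of 0.393. The region ends just before the start window printed above, which lies in no accessible region of the table. The region 1.1 kb inside the gene, at chr9:123768266-123769408, had 4.80 and 10.6 CPM in naive, 13.7 and 13.9 in effector and 5.55 and 5.56 in memory libraries. The effector libraries were the highest, and the naive libraries lay on both sides of the memory libraries. It was lower in memory than in effector cells at -1.31 ± 0.30, with an adjusted p of 0.00563, and had an adjusted p of 0.0642 in effector against naive. The gene's most accessible region, 12 kb before the start at chr9:123754075-123755212, had 38.7 and 57.7 CPM in naive, 30.6 and 46.5 in effector and 47.6 and 60.5 in memory libraries. Replicate 2 was above replicate 1 in each group there, the groups overlapped and it was not called. The sum of Ccr9 was 63.1 and 89.0 CPM in naive, 75.2 and 85.9 in effector and 65.6 and 83.7 in memory libraries, and was called in no comparison.

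Ccr7, which follows Ccl19 and Ccl21 into lymph nodes, had 11 regions, of which 9 were tested. Its sum was 109 and 113 CPM in naive, 138 and 126 in effector and 126 and 148 in memory libraries. Both later groups lay above the naive libraries and overlapped each other, but the sum was called in no comparison. A region inside the gene, at chr11:99149861-99151417, had 4.96 and 4.40 CPM in naive, 13.2 and 8.02 in effector and 6.96 and 7.43 in memory libraries. It was 1.18 ± 0.28 higher in effector than in naive cells, with an adjusted p of 0.00837. The groups did not overlap, with naive lowest and memory between. This call was lost without naive replicate 2 at 0.0566 and without effector replicate 1 at 0.192. Another inside region, at chr11:99146949-99148454, had 22.3 and 15.7 CPM in naive, 18.2 and 14.1 in effector and 24.2 and 27.9 in memory libraries. Both memory libraries were highest, and it was 0.69 ± 0.20 higher in memory than in effector cells, with an adjusted p of 0.0206. The adjusted p was 0.15 without effector replicate 2, 0.115 without memory replicate 2, 0.0529 with a loess offset and 0.121 with scaling on the highest regions. A sparse region 12.9 kb from the gene, at chr11:99168007-99168763, was lower in memory than in effector cells, with 20 counts against 75. The ratio of scaled counts was 0.277, with an exact 95% counting interval from 0.16 to 0.458 that covers counting error only. Its adjusted p was 0.0217, and leaving out any 1 effector or memory library raised it to between 0.0663 and 0.117. It was 0.0617 in DESeq2 and 0.177 with a loess offset, where the log2 fold change was -1.15 in place of -1.86. The most accessible Ccr7 region, 11.3 kb from the gene at chr11:99129365-99132896, had 42.1 and 44.1 CPM in naive, 49.4 and 42.3 in effector and 49.5 and 51.1 in memory libraries. It was not called. The 2 Ccr7 regions and 1 Cxcr4 region left untested held at most 16 counts over the libraries of a group.

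Ccr8, the receptor for Ccl1 that is known from type 2 T cells, ILC2s and regulatory T cells, held the most accessible region of the 9 genes. It lies over the start at chr9:120090616-120092802 and covers the Ccr8 window printed above. It had 245 and 208 CPM in naive, 237 and 202 in effector and 284 and 206 in memory libraries. The groups overlapped and no comparison was called, with a log2 fold change of -0.05 ± 0.15 in effector against naive. One Ccr8 region was called, 6.9 kb before the start at chr9:120083676-120085276, with 29.0 and 26.0 CPM in naive, 21.0 and 21.0 in effector and 32.0 and 28.6 in memory libraries. It lies between the starts of Ccr8 and Cx3cr1, as does the Cx3cr1 region 5.7 kb before the start of that gene. The nearest gene need not be the gene a region acts on. The effector libraries were the lowest at this Ccr8 region, and it was 0.53 ± 0.16 higher in memory than in effector cells, with an adjusted p of 0.0253. The adjusted p was 0.113 without effector replicate 1, 0.0843 without effector replicate 2, 0.129 without memory replicate 1, 0.081 with total counts, 0.229 with scaling on the highest regions and 0.117 with a loess offset.

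A further Ccr8 region, 2.8 kb past the end of the gene at chr9:120097691-120099374, differed more between the replicates of a group than between group means. It had 53.2 and 10.9 CPM in naive, 56.7 and 12.02 in effector and 33.6 and 7.33 in memory libraries. Replicate 1 was above replicate 2 by 4.90, 4.71 and 4.58 times in these groups, while the ratio at the other Ccr8 regions ran from 0.862 to 1.45. It was the only tested member more than 2-fold apart in the same direction in each group. Over the whole table, 176 of 56007 tested regions were higher in replicate 1 by over 2-fold in each group and 28 in replicate 2. What the replicate numbers share is not given in the labels. Memory was the lowest group within either replicate number. None of its comparisons was called, and its standard errors of 1.44 to 1.48 on the log2 scale were the widest of all members.

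**Figure D5:**
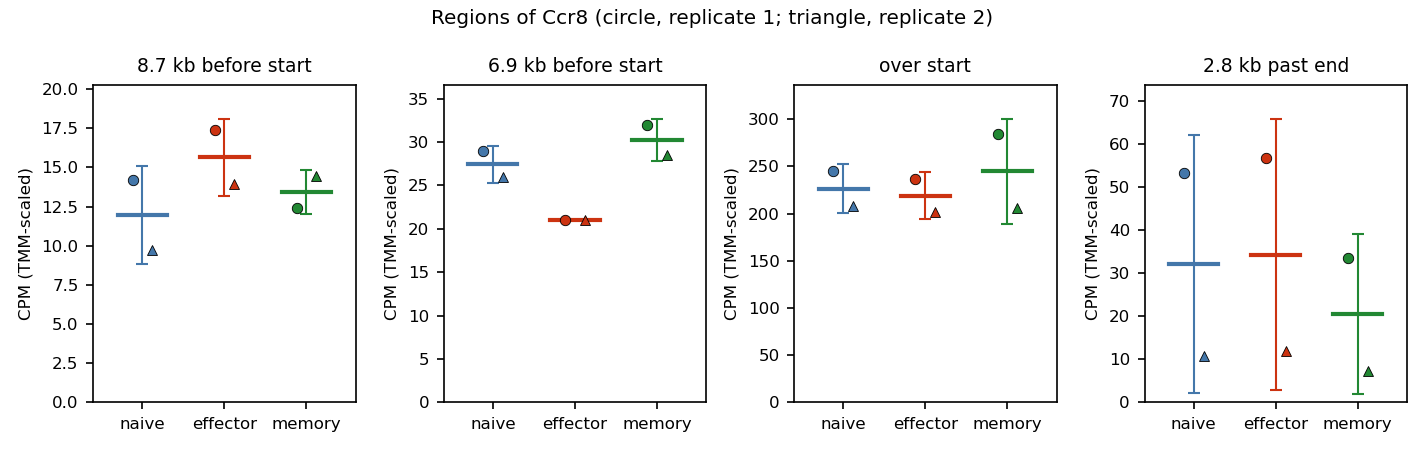
CPM of the 4 Ccr8 regions in the 6 libraries, ordered along the gene, each panel with its own axis from 0. Circles are replicate 1, triangles replicate 2, bars the mean and whiskers the SD of 2 libraries. In the region 2.8 kb past the end the circles lie between 33.6 and 56.7 CPM and the triangles between 7.33 and 12.02.

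Cxcr6 and Ccr10 had no called region. Cxcr6, the receptor for Cxcl16 found on tissue lymphocytes and on ILC progenitors, lies within the gene Fyco1, so both its regions overlap 2 genes. The region over its start, at chr9:123804839-123807113, had 34.5 and 37.9 CPM in naive, 37.0 and 41.2 in effector and 36.9 and 46.6 in memory libraries, with overlap between all groups. The region inside the gene had 23.7 and 18.1 CPM in naive, 29.1 and 24.9 in effector and 21.1 and 16.4 in memory libraries. Its effector libraries were the highest, and the adjusted p of memory against effector was 0.054. Alternatives gave values on both sides of 0.05, among them 0.0179 with total counts and 0.00540 with scaling on the highest regions. Ccr10, the receptor for Ccl27 and Ccl28 of skin and mucosal epithelia, had 1 region, at chr11:101173308-101174374, which overlaps the gene. It had 15.0 and 17.9 CPM in naive, 18.0 and 14.4 in effector and 15.4 and 20.5 in memory libraries, and the groups overlapped. Its log2 differences were -0.03 ± 0.20 in effector against naive and 0.13 ± 0.20 in memory against naive.

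Other genes of the same system are set beside the members, against the 11.5% higher and 4.98% lower of all tested regions in effector against naive, and the 7.72% higher and 13.6% lower in memory against effector. Of 18 other chemokine and chemoattractant receptors 15 had a region, and of their 60 tested regions 14 were higher and none lower in effector than in naive cells, and 19 were lower and none higher in memory than in effector cells. A region overlapping Ccr3, the eotaxin receptor of eosinophils, had 1.60 ± 0.23 CPM (SD, n = 2) in naive, 10.3 ± 0.18 in effector and 2.36 ± 0.97 in memory cells. Among the genes of this list called on their sums in effector against naive were Ccr1 and Ccr3, which lie on chromosome 9 near Ccr2, and Cxcr1, Cxcr5 and Cmklr1. Of 33 tested ligand regions, 5 were higher in effector than in naive cells, among them one near Ccl17, which encodes a ligand of Ccr4, at 25.5 ± 3.7 CPM in naive and 42.0 ± 3.9 in effector cells. Downstream signalling genes had 27 of 114 regions higher and 6 lower. A region near Rgs1, whose product limits G protein signalling from these receptors, had 12.2 ± 0.03 CPM in naive and 43.0 ± 10.2 in effector cells. In memory cells it had 14.0 ± 1.2. The Rgs1 sum over 17 regions was not called in effector against naive, with an edgeR adjusted p of 0.282. Egress and homing genes had 6 of 59 higher and 3 lower, close to the share over all regions. A region near Itga1, an integrin subunit that binds collagen, had 1.33 ± 0.38 CPM in naive and 10.8 ± 4.9 in effector cells. In memory cells it had 1.30 ± 0.03. The Itga1 sum was not called in effector against naive, with an edgeR adjusted p of 0.934. None of these 4 lists had a call in memory against naive. In memory against effector the ligands had 3 higher and 3 lower, signalling genes 10 higher and 20 lower, and egress and homing genes 6 higher and 4 lower.

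The gene sums most like that of Ccr2 over the 6 libraries, by Pearson r of log2 CPM, were those of Stimate, Rnf115, Capns1, Ahnak2 and Lactb, with r from 0.995 to 0.998. For Ccr4 they were Uxs1, Rarres2, Nxn, Fermt3 and Gadd45g, with r from 0.993 to 0.9997. These are the highest of 15986 sums over only 6 libraries, which share their depth and scaling, and they are given as a description.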

How the data were processed

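Per the labels, each group has 2 ATAC-seq libraries from separate pools of sorted lung ILC2s, prepared with a Tn5 kit. The deposited values are raw region counts and were used unchanged. Per the submitters' processing notes Bowtie2 2.5.3, edgeR 3.34.0 and bedtools 2.31.1 were among the tools, with mm10 as the build. The notes also name MACS2, fastp, deepTools 3.5.4 and ChIPseeker 1.28.3. How regions were merged, which duplicate filters were used, and whether Tn5 ends were shifted is not given in the sources used here. The same holds for the base from which starts are numbered, so coordinates are as the table gives them. Library totals in the regions were 11995095 to 20591102 counts, and member regions held 0.119% to 0.137% of each.

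Tests used edgeR 4.0.16 in R 4.3.3 (filterByExpr, TMM, robust quasi-likelihood fit, 1 term per group, 3 residual degrees of freedom, Benjamini-Hochberg adjustment). Levels are CPM on TMM-scaled library sizes. Gene sums were fitted separately with their own TMM factors, so their CPM differ slightly from the sum of region values. Genes came from RefSeq on GRCm38.p6. The fit was tested on simulated data.

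Named regions are the highest and the start region of each gene. Up to 3 called regions per gene, comparison and direction with the smallest adjusted p were also named. The Ccr8 region 2.8 kb past the gene and the Cxcr6 region inside its gene were named outside that rule. So was the Cx3cr1 region 5.7 kb before the start. Members and lists were chosen with earlier results of these data known, so counts over them are descriptions. Alternatives were RLE, total counts, TMM on the top 20% of regions by mean count, a loess offset, DESeq2 1.42.0, no low-count filter, non-robust estimation, a replicate block, each library left out, only the 2 groups compared, an adjusted p under 0.01, a 2-fold minimum, regions within 20 kb and 1 gene per region.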

Additional observations from a re-analysis of the deposited data

How the results depend on the processing

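No single result changed direction while called: of 2385 values of member regions and sums recomputed under alternatives, 2149 kept their side of the threshold (and, if uncalled, moved by under 1 SE), 151 uncalled values moved by more, 49 lost a call, 36 gained one and 0 reversed. The replicate numbers have no stated meaning, and the deviations of same-numbered libraries correlated at 0.235, 0.271 and 0.188. With the replicate block, member calls were 11 higher and 4 lower in effector against naive and 0 and 1 in memory against naive. In memory against effector they were 7 and 13, and 4, 1 and 2 gene sums were called in the 3 comparisons. Over all regions, the block gave 8765 higher and 6555 lower, 868 and 766, and 8352 and 10240 in these comparisons in turn. It called the Ccr8 region 2.8 kb past the gene lower in memory than in naive (-0.62, adjusted p 0.00955) and effector cells (-0.74, 0.000128), the Cx3cr1 region 5.7 kb before the start (0.0163 in effector against naive, 0.00812 in memory against effector), the Ccr9 region 12 kb before the start (0.0294, 0.000801) and the Ccr7 sum (0.0255 in effector and 0.0391 in memory against naive). Leaving out 1 library gave 4 to 9 higher calls and 1 lower call in effector against naive, 2 to 3 higher and 6 to 11 lower in memory against effector, and 0 to 2 gene sums in each of these. An adjusted p under 0.01 left 6 and 1, then 1 and 5, and 1 gene sum in each; a 2-fold minimum left 6 and 0, then 0 and 7, and 0 gene sums. Regions within 20 kb gave 5 and 0, then 2 and 7. TMM on the highest regions gave 12 and 1, then 1 and 13, and loess 7 and 1, then 1 and 9; 1 gene per region gave 3 gene sums in memory against effector. Scaling moved the split over all regions: 6449 higher and 2791 lower in effector against naive became 7252 and 1538 with total counts and 8662 and 739 with TMM on the highest regions, which shifted the median of all regions to 0.197, and 4322 and 7634 in memory against effector became 2056 and 8850, and 1002 and 11052 with a median of -0.281. With 2 libraries per group, low regions such as those under 30 counts in a group set wide errors.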
